A study of Mus musculus with 18 samples.

Results

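In AGO2 null mouse embryonic fibroblasts, 224 of the 229581 exon probe sets measured had a splicing index set apart from that of both Dicer null and wild-type cells. A probe set is the small group of array probes that reads 1 exon or part of it. Its splicing index is its log2 value minus the median log2 value of all probe sets of the same gene on the same array. A member's mean index in AGO2 null cells differed by 1 or more on the log2 scale, in the same direction, from Dicer null and from wild-type cells, whose own means differed by under 0.5. Its gene had at least 4 probe sets, a mean level at or above the median of all genes (6.91, log2) and genotype means of that level within 0.5 of each other. These gene filters left 64945 probe sets of 4098 genes, of which the 224 members made up 0.345%, in 200 genes. The members were chosen by the measured index in AGO2 null, Dicer null and wild-type cells. Their index differences between genotypes are therefore a description with no test, and the likeness of Dicer null and wild-type cells in these probe sets was a condition of the choice.

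The series compared 3 genotypes of mouse embryonic fibroblasts, which are connective tissue cells grown from embryos, with 3 arrays each. They were AGO2 null (AGO2 -/-), Dicer null (Dicer -/-) and wild type. All were grown for 3 days to subconfluency in DMEM with 7% fetal calf serum, penicillin and streptomycin, with no other treatment. Total RNA was treated with DNase, and a NuGEN Applause kit fragmented and biotinylated the material that was hybridised. Each genotype was 1 cell line as far as the labels say. The AGO2 null line came from another laboratory than the Dicer null and wild-type lines, so the genotype of the AGO2 null cells and the origin of their line cannot be told apart. The labels name no strain, embryonic age or passage. The arrays are labelled biological replicates with no separate cultures or animals named, so the spread between them may be technical.

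Genes can join their exons in several ways, and the choice of exons sets which protein or RNA form a cell makes. An exon that is skipped loses its array signal while the other exons of the gene keep theirs, so its splicing index is low, and an exon that is retained more often has a higher index. Alternative first exons, alternative last exons and retained introns move the index in the same way. AGO2 is the Argonaute protein that is guided by small RNAs to matching transcripts, which it can cut, and Dicer is the ribonuclease that cuts microRNAs out of their precursors. Both work in the cytoplasm, and Argonaute proteins have also been found in the nucleus, where a role at chromatin and in the choice of exons has been proposed. Probes bind with unequal strength, so an index is compared between genotypes within 1 probe set, and its height against 0 does not measure how often an exon is used. Such a comparison takes each probe to bind alike in every line, which was not tested. The files give no exon position or probe sequence, and members are named by gene and probe set number.

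The targeted genes followed the genotype labels. The median of the 21 Ago2 probe sets was 6.90 ± 0.04 in AGO2 null cells, 9.05 ± 0.18 in Dicer null cells and 8.02 ± 0.03 in wild-type cells (log2 value, SD, n = 3 each). That of the 40 Dicer1 probe sets was 9.36 ± 0.08 in AGO2 null cells, 8.20 ± 0.07 in Dicer null cells and 8.88 ± 0.09 in wild-type cells (both genes fail the rule's limit of 0.5 on the gene level and could hold no member). All 11 fibroblast markers measured stood at or above the median gene level in AGO2 null cells, 7 did in Dicer null cells and 11 in wild-type cells. Their lowest gene level was 7.60 in AGO2 null cells, 3.43 in Dicer null cells and 7.42 in wild-type cells. Of 9 leukocyte markers 1 did in each genotype, and of 7 endothelial markers 0 did in AGO2 null cells, 0 in Dicer null cells and 1 in wild-type cells. Of 10 epithelial markers 4 did in AGO2 null cells, 4 in Dicer null cells and 1 in wild-type cells. Of 7 neural markers 3 did in AGO2 null cells, 2 in Dicer null cells and 3 in wild-type cells, and of 6 muscle markers 1 did in AGO2 null cells, 1 in Dicer null cells and 0 in wild-type cells. Whether these levels bear on the members was not tested.

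Replicate 2 had the lowest median index of the AGO2 null arrays in these probe sets, and of the wild-type arrays among higher members only. The members with a higher index in AGO2 null cells had a median index of -2.93 on AGO2 null replicate 1, -3.63 on replicate 2 and -2.68 on replicate 3. In the same members wild type replicate 2 was also low, at -4.93, against -4.11 on wild type replicate 1 and -4.27 on wild type replicate 3. In the lower members the medians on replicates 1, 2 and 3 were -2.43, -2.87 and -2.50 in AGO2 null cells. In wild-type cells they were -1.300, -1.298 and -1.235. Without AGO2 null replicate 2 the same rule found 364 members, 256 with a higher and 108 with a lower index, and 180 of them were among the 224. Of the 166 index differences of the members named below, 0 changed sign without it and 18 came to under 1 in size. No array was dropped from the values below unless stated.

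The members divided evenly, with 112 of higher index in AGO2 null cells, in 110 genes, and 112 of lower index, in 95 genes. The plot of index differences shows them in opposite corners, beyond 1 on each axis. Of the 112 higher members 71 had all 3 AGO2 null indices above the range of the other 6 arrays, where 4.21% of all probe sets that met the gene filters did so. Of the 112 lower members 102 had all 3 below that range, where 5.35% of all probe sets did. In either direction this was 173 of 224 members against 9.56% of probe sets, and since the rule asked for a separation of means, nothing further is read from it. The margin of a member is the smaller of its index differences from the other genotypes, without sign. It had a median of 1.18 among higher and 1.24 among lower members, and it was 2 or more in 4 higher and 10 lower members. Just inside the rule were probe sets of Fbxo28 (margin 1.0063), Sfrs10 (1.0032) and Zfp318 (1.0003), and just outside it those of Shcbp1 (0.9978), Gripap1 (0.9946) and Slc38a10 (0.9904).

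**Figure D1:**
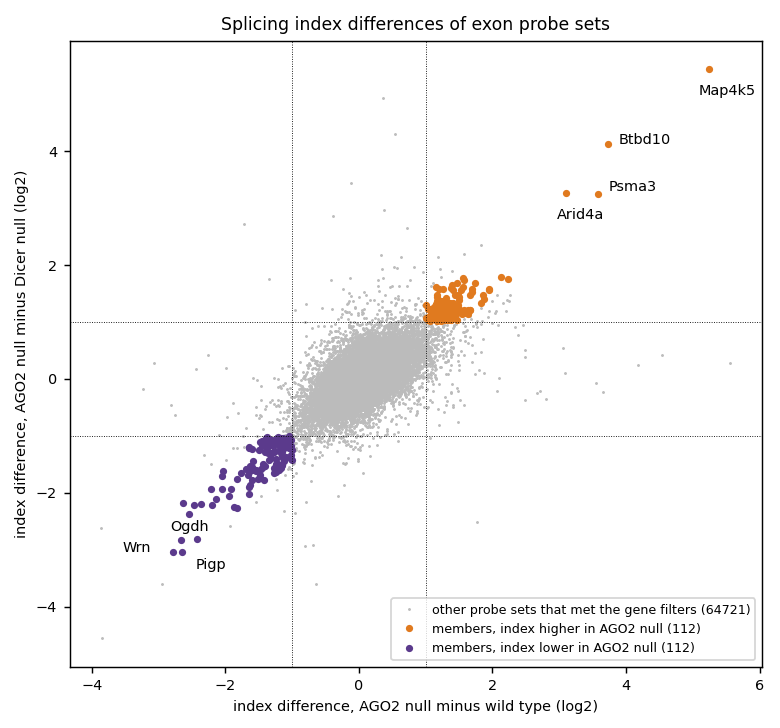
Splicing index difference of each probe set that met the gene filters, AGO2 null minus wild type on the horizontal axis and AGO2 null minus Dicer null on the vertical axis (log2, means of 3 arrays a genotype). Orange points are the 112 members of higher and violet points the 112 of lower index in AGO2 null cells, grey points are the other probe sets, and dotted lines mark differences of 1; Map4k5, Btbd10, Psma3 and Arid4a lie above 3 on both axes. Grey points beyond both lines in these corners belong to probe sets in which Dicer null and wild type differed by 0.5 or more.

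Under the same rule with the genotypes exchanged, 78 probe sets in 66 genes were set apart in Dicer null cells (0.120%) and 84 in 71 genes in wild-type cells (0.129%). Of these, 26 were higher and 52 lower in Dicer null cells, and 22 were higher and 62 lower in wild-type cells. The 3 sets use the same 9 arrays, and the difference in their sizes was not tested.

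The values of the widest margins follow, and where the other genotypes read under the 25th percentile of an array (5.30 to 5.46), the size of a log2 difference depends on how dim values are treated. The widest margin as deposited was in Map4k5, a kinase of the family that acts upstream of the stress kinase JNK. Its probe set 5046782 read 7.77, 7.24 and 7.97 in AGO2 null cells, 2.43, 2.41 and 2.31 in Dicer null cells and 2.07, 2.19 and 2.50 in wild-type cells (log2 value). It lay near the lowest value of an array (1.52 to 1.57) in the other genotypes and more than 4 units higher on each AGO2 null array. The index was -2.34 ± 0.26 in AGO2 null cells, -7.78 ± 0.16 in Dicer null cells and -7.58 ± 0.23 in wild-type cells, a difference of 5.44 from Dicer null and 5.24 from wild type (SD, n = 3 each here and below). With 50 added to the linear values, the difference was 2.35 from Dicer null and 2.05 from wild type, smaller than that of Psma3 under the same setting. The other 36 probe sets of Map4k5 differed by -0.35 to 0.57 from Dicer null and by -0.31 to 0.30 from wild type.

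Btbd10, which encodes a BTB domain protein, showed the same form of difference. Probe set 5078099 read 7.41, 8.27 and 7.78 in AGO2 null cells, 2.98, 3.86 and 3.26 in Dicer null cells and 3.58, 3.52 and 4.83 in wild-type cells. No array of another genotype came within 2 units of an AGO2 null array. The index was 4.13 above Dicer null and 3.73 above wild type as deposited, and 1.92 and 1.96 above them with 50 added to the linear values. The other 13 probe sets differed by -0.90 to 0.51 from Dicer null and by -0.41 to 0.19 from wild type.

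Psma3 encodes an alpha subunit of the 20S proteasome, the core that degrades proteins. Its probe set 5370051 read 10.90, 10.80 and 11.13 in AGO2 null cells, 7.87, 7.75 and 7.41 in Dicer null cells and 7.64, 7.13 and 7.12 in wild-type cells. Its index was -0.79 ± 0.14 in AGO2 null cells, -4.04 ± 0.19 in Dicer null cells and -4.37 ± 0.34 in wild-type cells. With 50 added to the linear values it was 2.97 above Dicer null and 3.22 above wild type, the widest margin of the named members under that setting. Arid4a, a retinoblastoma-binding protein found in Sin3 corepressor complexes, lies next to Psma3 among the genes that met the filters. Its probe set 5533658 read 9.28, 8.98 and 9.34 in AGO2 null cells, 6.28, 6.22 and 5.56 in Dicer null cells and 5.81, 6.03 and 5.99 in wild-type cells. The index was 3.27 above Dicer null and 3.11 above wild type, and the other 14 Arid4a probe sets differed by -0.14 to 0.21 from Dicer null and by -0.21 to 0.25 from wild type.

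Thumpd1 and Kif23 were higher members whose probe sets read well above the dim end in every genotype. Thumpd1 encodes an RNA-binding protein that acts with an acetyltransferase on transfer RNA. Its probe set 4579788 read 9.63, 10.21 and 9.97 in AGO2 null cells, 8.13, 7.87 and 7.98 in Dicer null cells and 7.79, 7.92 and 7.83 in wild-type cells. Its index was 1.69 above Dicer null and 1.73 above wild type. The other 5 probe sets of Thumpd1 had index differences of -0.62 to -0.23 from Dicer null and of -0.58 to -0.37 from wild type, and the gene level was 8.33 in AGO2 null cells, 8.08 in Dicer null cells and 7.97 in wild-type cells.

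Kif23 encodes a mitotic kinesin needed for the end of cell division, and an alternative exon distinguishes its MKLP1 and CHO1 forms. Its probe set 4592278 read 10.00, 9.92 and 10.17 in AGO2 null cells, 8.84, 8.69 and 8.48 in Dicer null cells and 8.68, 8.05 and 8.64 in wild-type cells. The index was -0.01 ± 0.02 in AGO2 null cells, -1.59 ± 0.11 in Dicer null cells and -1.71 ± 0.31 in wild-type cells. The other 26 probe sets differed by -0.22 to 0.47 from Dicer null and by -0.29 to 0.87 from wild type. Whether 4592278 reads that alternative exon is not known from the files.

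Apart from Gas5, the rest of the 12 higher members of widest margin without overlap read under 7 on all arrays. Snx1, a sorting nexin of the retromer coat, had probe set 4576878 at 5.12, 4.86 and 6.35 in AGO2 null cells, 3.25, 3.67 and 3.18 in Dicer null cells and 3.41, 2.84 and 2.57 in wild-type cells. Parn, the poly(A)-specific ribonuclease, had probe set 5141832 at 5.18, 3.86 and 6.52 in AGO2 null cells, 3.41, 3.08 and 3.41 in Dicer null cells and 2.81, 2.96 and 2.65 in wild-type cells. The AGO2 null arrays lay above all others for both, and replicate 2 had the lowest AGO2 null value. Gas5, a non-coding RNA that hosts small nucleolar RNAs, had probe set 5325479 at 8.86, 8.62 and 9.25 in AGO2 null cells, 7.33, 7.17 and 6.70 in Dicer null cells and 8.03, 6.62 and 7.63 in wild-type cells. Tardbp encodes TDP-43, an RNA-binding regulator of splicing, and its probe set 5381639 had an index of -2.76 ± 0.57 in AGO2 null cells, -4.24 ± 1.08 in Dicer null cells and -4.42 ± 0.60 in wild-type cells. Its AGO2 null indices only just cleared the rest, at -3.36 on replicate 2 against -3.42 on Dicer null replicate 1. Atraid and Armcx3 completed the 12 widest without overlap, with indices 1.77 and 1.57 above Dicer null and 1.56 and 1.53 above wild type. With 50 added to the linear values, the differences of Snx1, Parn, Atraid, Armcx3 and Tardbp lay between 0.37 and 0.76, under the rule's threshold.

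**Figure D2:**
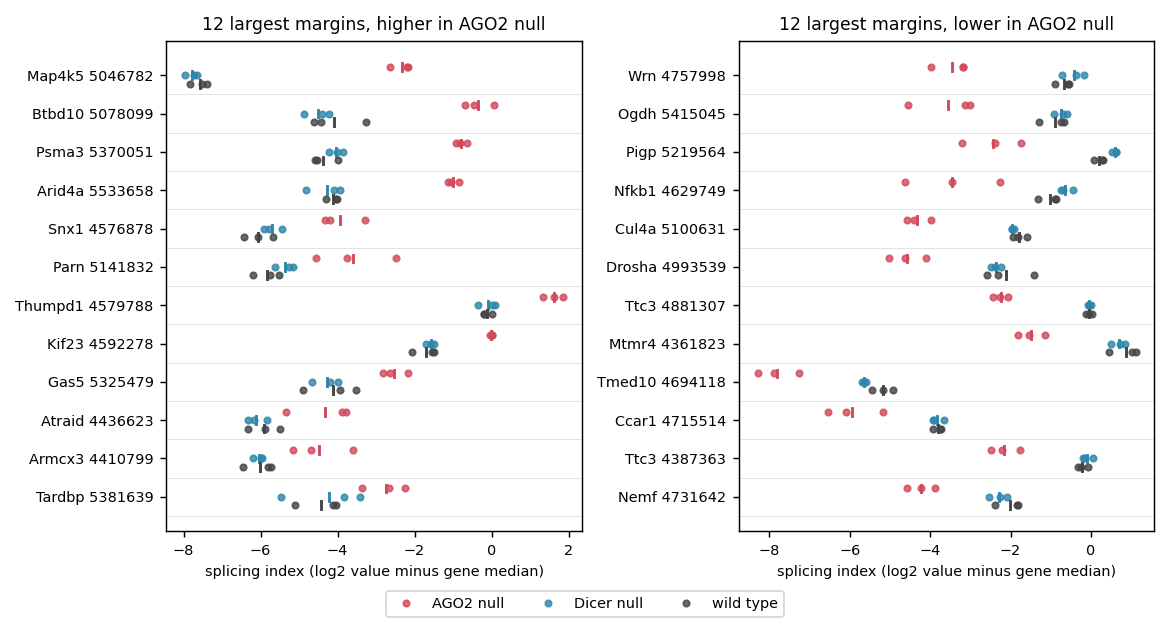
Splicing index (log2) on each of the 9 arrays for the 12 higher members (left) and the 12 lower members (right) with the largest margin among those whose AGO2 null indices lay outside the range of the other arrays. Points are single arrays, ticks the mean of 3 arrays, with AGO2 null above Dicer null above wild type in each row; the AGO2 null points of Map4k5 lie between -2.64 and -2.18, and all other Map4k5 points are below -7.

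Among lower members the largest margin was in Wrn, the helicase and exonuclease of the RecQ family that acts in DNA repair. Probe set 4757998 read 4.89, 3.97 and 4.86 in AGO2 null cells, 7.42, 7.67 and 7.81 in Dicer null cells and 7.97, 7.54 and 7.94 in wild-type cells. All AGO2 null arrays lay at least 2 units below all others. The index was -3.46 ± 0.47 in AGO2 null cells, -0.42 ± 0.28 in Dicer null cells and -0.67 ± 0.19 in wild-type cells, a difference of -3.04 from Dicer null and -2.79 from wild type. With 50 added to the linear values it was -1.72 from Dicer null and -1.50 from wild type.

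Ogdh encodes the first enzyme of the 2-oxoglutarate dehydrogenase complex of the citric acid cycle. Its probe set 5415045 read 6.18, 4.50 and 5.96 in AGO2 null cells, 8.30, 8.44 and 8.47 in Dicer null cells and 8.31, 7.71 and 8.40 in wild-type cells. The index differed by -2.82 from Dicer null and by -2.67 from wild type. Pigp encodes a subunit of the enzyme that starts the synthesis of glycosylphosphatidylinositol anchors, and its probe set 5219564 read 5.81, 4.78 and 6.67 in AGO2 null cells, 8.93, 9.03 and 8.68 in Dicer null cells and 8.93, 8.28 and 8.73 in wild-type cells. The index of Pigp was -2.44 ± 0.73 in AGO2 null cells, 0.59 ± 0.06 in Dicer null cells and 0.21 ± 0.12 in wild-type cells.

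Nfkb1 encodes the p105 precursor of the NF-kappaB subunit p50. Probe set 4629749 read 5.94, 4.20 and 4.81 in AGO2 null cells, 7.42, 7.72 and 7.58 in Dicer null cells and 6.92, 7.50 and 7.31 in wild-type cells. Cul4a, the cullin scaffold of a ubiquitin ligase, had probe set 5100631 at 4.36, 3.64 and 3.73 in AGO2 null cells, 6.36, 6.28 and 6.25 in Dicer null cells and 6.30, 6.21 and 6.72 in wild-type cells. The Cul4a arrays were tight within each genotype, and the index differed by -2.36 from Dicer null and -2.54 from wild type, or by -0.96 and -1.08 with 50 added to the linear values.

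Drosha is the nuclear ribonuclease that releases microRNA precursors from primary transcripts, the step before Dicer. Its probe set 4993539 read 4.54, 3.94 and 5.15 in AGO2 null cells, 7.04, 7.00 and 7.22 in Dicer null cells and 6.89, 6.54 and 7.67 in wild-type cells. The index was -4.58 ± 0.47 in AGO2 null cells, -2.37 ± 0.13 in Dicer null cells and -2.11 ± 0.61 in wild-type cells. With 50 added to the linear values the difference was -1.02 from Dicer null and -1.28 from wild type. This was 1 of 43 Drosha probe sets, and the median of the gene stood at 9.12 in AGO2 null cells, 9.45 in Dicer null cells and 9.15 in wild-type cells.

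Mtmr4 and Ttc3 were lower members whose probe sets averaged above 9 in both Dicer null and wild-type cells. Mtmr4, a phosphoinositide phosphatase of endosomes, had probe set 4361823 at 7.36, 6.50 and 7.24 in AGO2 null cells, 9.00, 9.23 and 9.43 in Dicer null cells and 9.73, 9.30 and 9.95 in wild-type cells. Ttc3, a ubiquitin ligase, had 2 of its 55 probe sets among the members. Probe set 4881307 read 7.76, 7.51 and 8.16 in AGO2 null cells, 9.75, 9.80 and 9.78 in Dicer null cells and 10.22, 10.15 and 10.16 in wild-type cells. Its index was -2.25 ± 0.19 in AGO2 null cells, -0.04 ± 0.04 in Dicer null cells and -0.05 ± 0.07 in wild-type cells. The other, 4387363, differed by -2.06 from Dicer null and by -1.94 from wild type. Tmed10, a cargo receptor of early secretory vesicles, and Ccar1, a transcriptional coactivator, were dimmer members. The index of Tmed10 differed by -2.17 from Dicer null and -2.64 from wild type, and that of Ccar1 by -2.11 from Dicer null and -2.14 from wild type.

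Of the 200 genes, 183 held 1 member and 17 held several, of which the 15 with the most members or the widest margins are described. Members of 1 gene share its transcript and gene level and are not replicates. Rtn3, a reticulon that shapes the membrane of the endoplasmic reticulum, had the most, with 5 of 19 probe sets. Of these, 4 were lower, by -1.78 to -1.35 from Dicer null and -1.69 to -1.16 from wild type. For 4881386, the index was -4.01, -4.36 and -4.42 in AGO2 null cells, -2.61, -2.55 and -2.29 in Dicer null cells and -2.57, -2.92 and -2.50 in wild-type cells. The remaining one, 4753430, was higher by 1.33 than in Dicer null cells and by 1.40 than in wild-type cells. The other 14 Rtn3 probe sets differed by -0.06 to 0.80 from Dicer null and by -0.18 to 0.45 from wild type.

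Wrn had 4 members among 44 probe sets, 3 lower and 1 higher. Beside 4757998, probe set 4415744 had an index of -0.68 ± 0.30 in AGO2 null cells, 1.24 ± 0.09 in Dicer null cells and 1.36 ± 0.13 in wild-type cells. Probe set 4907961 stood at -1.49 ± 0.35 in AGO2 null cells, 0.15 ± 0.14 in Dicer null cells and 0.28 ± 0.15 in wild-type cells. The higher one, 4702591, was -1.47 ± 0.22 in AGO2 null cells, -2.81 ± 0.41 in Dicer null cells and -2.82 ± 0.54 in wild-type cells. The remaining 40 Wrn probe sets ranged from -0.95 to 0.74 in their difference from Dicer null and from -1.03 to 0.75 in that from wild type.

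Nemf, a factor of ribosome-associated quality control, had 2 lower members and 1 higher among 39 probe sets. Its 4731642 read 4.89, 5.47 and 4.76 in AGO2 null cells, 7.48, 7.32 and 6.93 in Dicer null cells and 7.36, 6.47 and 7.41 in wild-type cells. The other lower one, 4504811, overlapped between the genotypes in its index (-5.42 ± 1.15 in AGO2 null cells, -3.40 ± 0.45 in Dicer null cells and -3.76 ± 0.76 in wild-type cells). Canx encodes calnexin, a chaperone of the endoplasmic reticulum, and had 3 lower members among 31 probe sets. The index of 5581928 was -6.69 ± 1.30 in AGO2 null cells, -4.76 ± 0.15 in Dicer null cells and -4.77 ± 0.60 in wild-type cells. The differences of 4579176 and 4774327 from Dicer null were -1.04 and -1.02, close to the edge of the rule. The other 28 Canx probe sets differed by -1.19 to 0.41 from Dicer null and by -1.04 to 0.44 from wild type. Some that were not members thus came as low as these members in their difference from Dicer null.

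**Figure D3:**
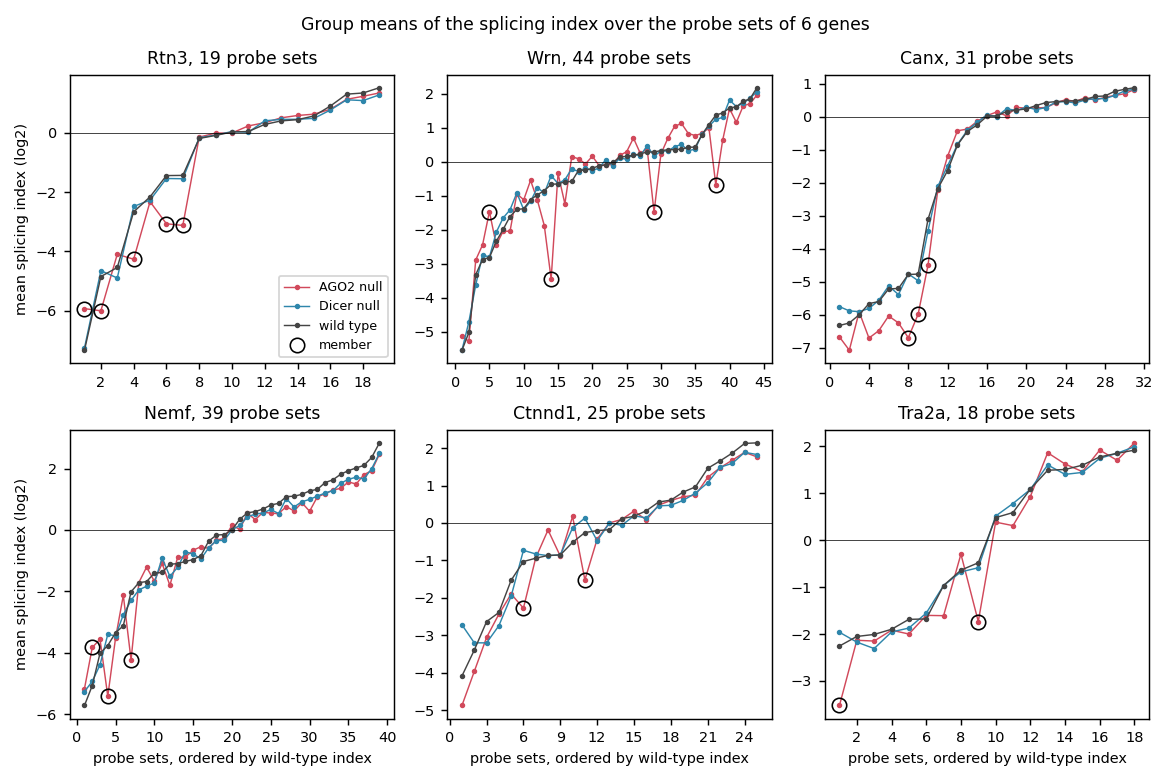
Mean splicing index (log2, 3 arrays a genotype) of every probe set of 6 genes with several members, ordered along the horizontal axis by the wild-type index and not by position in the gene. Lines join AGO2 null (red), Dicer null (blue) and wild-type (dark grey) means, and circles mark the members; in Rtn3, Ctnnd1 and Tra2a the AGO2 null line leaves the others at the circled probe sets and lies close to them at most others.

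In Farsa, the alpha subunit of phenylalanyl-tRNA synthetase, 2 lower members differed by -2.26 and -1.61 from Dicer null and by -1.83 and -1.63 from wild type. Probe set 5503484 of Farsa had indices of -1.93, -1.66 and -2.22 in AGO2 null cells, -0.27, -0.25 and -0.44 in Dicer null cells and -0.21, -0.37 and -0.34 in wild-type cells. Polb, the DNA polymerase of base excision repair, had 2 lower members, with 5117313 at 5.21, 5.03 and 5.13 in AGO2 null cells, 6.45, 6.89 and 7.02 in Dicer null cells and 6.35, 6.81 and 6.90 in wild-type cells. Nup88, a nucleoporin, had 2 lower members whose index differed by -1.54 and -1.18 from Dicer null and by -1.60 and -1.45 from wild type. Shprh, a helicase-like ubiquitin ligase for the replication clamp PCNA, also had 2, at -1.38 and -1.19 from Dicer null and -1.32 and -1.18 from wild type. For Fam76b the 2 lower members differed by -1.70 and -1.20 from Dicer null and by -2.06 and -1.09 from wild type, and the AGO2 null arrays overlapped the others for the weaker one.

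Syngr1 and Capza2 were the genes with 2 higher members and no lower one among those described. Syngr1 encodes a synaptogyrin of small vesicles, and its 4929515 read 7.08, 7.23 and 6.74 in AGO2 null cells, 5.65, 5.51 and 4.46 in Dicer null cells and 5.16, 5.26 and 4.83 in wild-type cells. Its other member, 4828340, stood 1.62 above Dicer null and 1.16 above wild type. The remaining 6 Syngr1 probe sets had index differences of -0.40 to -0.06 from Dicer null and of -0.45 to -0.24 from wild type. Capza2 encodes a subunit of the protein that caps actin filaments. Its 4902630 had indices of -3.93, -6.52 and -4.68 in AGO2 null cells, -7.06, -6.65 and -6.13 in Dicer null cells and -6.07, -6.98 and -7.93 in wild-type cells, so that AGO2 null replicate 2 lay within the other genotypes.

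Genes with known alternative exons held 8 members among 1228 probe sets (0.651%, where all probe sets that met the gene filters had 0.345%), in 6 of 58 genes. The list's median index difference was 0.00 from Dicer null and -0.03 from wild type, beside 0.00 and -0.01 over all probe sets that met the filters. Of the members 6 were lower and 2, in Kif23 and Tpm3, were higher. Ctnnd1 encodes p120 catenin, which stabilises cadherins at cell contacts and is made in several splice forms. Its 4732362 had indices of -2.29, -2.27 and -2.28 in AGO2 null cells, -0.68, -0.63 and -0.90 in Dicer null cells and -0.58, -0.84 and -1.67 in wild-type cells. All AGO2 null arrays were lower than every other array there, and the same held for 5589147 (-1.52 ± 0.76 in AGO2 null cells, 0.13 ± 0.17 in Dicer null cells and -0.26 ± 0.07 in wild-type cells).

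Tra2a, a splicing factor that itself has alternative exons, held 2 lower members among 18 probe sets. Its 4605529 had indices of -1.48, -1.90 and -1.81 in AGO2 null cells, -0.75, -0.54 and -0.48 in Dicer null cells and -0.38, -0.49 and -0.57 in wild-type cells, with no overlap. Its 4400079 differed by -1.56 from Dicer null and -1.26 from wild type. Tcf7l2, a transcription factor of Wnt signalling, had 4748588 at 9.27, 8.20 and 8.95 in AGO2 null cells, 9.99, 9.84 and 9.96 in Dicer null cells and 9.71, 9.93 and 9.68 in wild-type cells. Tpm3, a tropomyosin that binds actin filaments, had 4416340 at 7.83, 7.81 and 7.96 in AGO2 null cells, 6.37, 6.75 and 6.88 in Dicer null cells and 7.10, 6.14 and 7.23 in wild-type cells. Each of these probe sets separated the AGO2 null arrays from all others in its index.

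Splicing factors and other RNA-binding proteins held 5 members among 871 probe sets (0.574%), in 4 of 45 genes, 2 higher and 3 lower. This list does not count Tra2a, which is in the list above. It also leaves out Sfrs10, an old splicing factor symbol that matched no RefSeq symbol and held 2 members among 18 probe sets. Their median index difference was 0.01 from Dicer null and 0.00 from wild type. Mbnl2, a muscleblind protein that regulates alternative exons and has its own, is in both lists. Its 4849027 read 9.22, 9.45 and 9.22 in AGO2 null cells, 10.38, 10.25 and 10.31 in Dicer null cells and 9.88, 10.21 and 10.22 in wild-type cells. The index was -1.14 ± 0.04 in AGO2 null cells, where the arrays lay close together, 0.00 ± 0.00 in Dicer null cells, where the probe set was the gene's median itself, and -0.07 ± 0.08 in wild-type cells. Rbm25, a splicing regulator, had 4543161 at 8.53, 7.62 and 7.96 in AGO2 null cells, 9.56, 9.64 and 9.47 in Dicer null cells and 9.59, 9.64 and 9.52 in wild-type cells. Its second member, 4375831, was dimmer and differed by -1.51 from Dicer null and -1.15 from wild type. Sf3b1, a core protein of the U2 small nuclear ribonucleoprotein, had 5163733 at 4.26, 4.40 and 2.59 in AGO2 null cells, 2.31, 2.35 and 2.28 in Dicer null cells and 2.66, 1.99 and 1.83 in wild-type cells. Its AGO2 null replicate 3 lay within the range of the other genotypes.

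The RNA silencing list held 2 lower members among 470 probe sets (0.426%), in 2 of 21 genes, and its median index difference was -0.05 from Dicer null and -0.02 from wild type. Beside Drosha this was Pan2, the catalytic subunit of a deadenylase that shortens messenger RNA tails. Its 4490814 had indices of -3.86, -1.60 and -2.21 in AGO2 null cells, -1.09, -1.25 and -1.68 in Dicer null cells and -1.45, -1.33 and -1.54 in wild-type cells. AGO2 null replicate 1 was the low one there, and replicate 2 overlapped the other genotypes.

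Chromatin and DNA methylation genes held 2 members among 1201 probe sets (0.167%), in 2 of 50 genes, with a median index difference of 0.00 from Dicer null and 0.00 from wild type. Both were higher. Rnf2, the ubiquitin ligase of Polycomb repressive complex 1, had 4689711 at 4.97, 4.21 and 4.58 in AGO2 null cells, 3.46, 2.88 and 3.67 in Dicer null cells and 3.99, 2.40 and 2.80 in wild-type cells. Bptf, the large subunit of the remodelling factor NURF, had 4723688 at 6.32, 4.60 and 6.18 in AGO2 null cells, 4.53, 4.79 and 4.45 in Dicer null cells and 4.77, 4.14 and 4.38 in wild-type cells. The AGO2 null arrays did not overlap the others in the index of Rnf2 and did so in that of Bptf.

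Ubiquitin and proteasome genes held 15 members in 15 of 156 genes, among 2699 probe sets (0.556%), 10 higher and 5 lower. The median index difference of the list was 0.00 from Dicer null and -0.01 from wild type. Beside Psma3 and Cul4a, the cullin Cul3 had 4938073 at 6.41, 5.58 and 6.77 in AGO2 null cells, 5.27, 3.74 and 4.86 in Dicer null cells and 4.71, 4.11 and 5.01 in wild-type cells, with no overlap. Ribosome and translation genes held 6 members among 1574 probe sets (0.381%), 4 higher and 2 lower. Mrps16, a protein of the mitochondrial ribosome, had 4623337 at 7.36, 6.40 and 7.24 in AGO2 null cells, 4.76, 6.22 and 4.83 in Dicer null cells and 5.94, 3.85 and 5.87 in wild-type cells. Rpl39, of the large cytoplasmic subunit, and Eif3j1, of an initiation factor, had higher members that differed by 1.33 and 1.24 from Dicer null and by 1.37 and 1.38 from wild type. In these 3 genes the AGO2 null arrays overlapped the others in the index, though not in the Mrps16 values given.

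Genes of the actin cytoskeleton and adhesion held 6 members among 1308 probe sets (0.459%), 3 higher and 3 lower. Among them Diaph3, a formin that nucleates actin filaments, had 5603743 at 6.35, 5.31 and 6.52 in AGO2 null cells, 4.51, 4.88 and 4.90 in Dicer null cells and 4.83, 4.01 and 4.93 in wild-type cells. Microtubule and motor genes held 2 among 811 (0.247%), Kif23 and the lower member of the kinesin Kif21a (4637631, -1.75 from Dicer null and -1.83 from wild type). Vesicle traffic genes held 4 among 1886 (0.212%), 2 higher and 2 lower. Stx16, a SNARE protein of the trans-Golgi network, had 4581681 at 9.16, 8.54 and 8.70 in AGO2 null cells, 10.28, 10.38 and 10.39 in Dicer null cells and 10.10, 10.26 and 10.15 in wild-type cells. Sec62, of the protein channel of the endoplasmic reticulum, had the higher member 5175166 in the same list, with AGO2 null indices of -4.36, -7.33 and -4.85 that overlapped the others.

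Kinases and phosphatases held 4 members among 2111 probe sets (0.189%), 1 higher and 3 lower. Beside Map4k5 these included Cdk11b, a cyclin-dependent kinase tied to transcription and splicing. Its 5140732 had one of the tightest separations, with indices of -2.16, -2.09 and -2.08 in AGO2 null cells, -1.03, -1.06 and -0.95 in Dicer null cells and -1.02, -1.02 and -0.95 in wild-type cells. Pik3ip1, which restrains phosphatidylinositol 3-kinase, had 5245554 at -1.08 from Dicer null and -1.16 from wild type. Transcription factors held 6 among 1671 (0.359%), 3 higher and 3 lower. Nfat5, which responds to osmotic stress, had 5541741 at 5.58, 5.35 and 5.02 in AGO2 null cells, 6.70, 6.57 and 6.37 in Dicer null cells and 6.87, 6.31 and 7.22 in wild-type cells. The zinc finger genes Zfp932 and Zfp142 had index differences of 1.22 and -1.55 from Dicer null and of 1.19 and -1.43 from wild type, with overlap in Zfp142.

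Membrane transport genes held 3 higher members among 1211 probe sets (0.248%). They were in Slc35b3, a Golgi transporter of the sulfate donor PAPS, Slc12a7, a potassium-chloride cotransporter, and Slc25a3, the mitochondrial phosphate carrier. For Slc12a7 4587495 the values were 5.36, 4.18 and 5.66 in AGO2 null cells, 3.58, 3.69 and 3.39 in Dicer null cells and 3.66, 3.72 and 3.73 in wild-type cells, with no overlap. The AGO2 null indices of Slc35b3 and Slc25a3 overlapped the others. Extracellular matrix genes held 0 members among 440 probe sets, and genes of the interferon response 0 among 179. These lists hold few genes that met the gene filters, 14 and 15. In the 9 lists from ribosome and translation to the interferon response, the median index difference lay between -0.01 and 0.01 from Dicer null and between -0.03 and 0.01 from wild type.

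Higher members mostly had a low index in every genotype. The mean index over the 9 arrays had a median of -3.95 among higher and -1.70 among lower members, and it was below -2 in 99 higher and 48 lower members. The log2 value of the higher members had a median of 6.18 in AGO2 null cells, 4.75 in Dicer null cells and 4.65 in wild-type cells. That of the lower members had a median of 6.19 in AGO2 null cells, 7.60 in Dicer null cells and 7.51 in wild-type cells. The lowest of the 3 genotype means fell under the 25th percentile of all probe sets in 79 higher and 42 lower members.

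Probe sets that met the gene filters and were not members also differed with the index. Of the 1222 probe sets with a mean index below -4, 53 were higher and 11 lower members (5.24%), and the median difference of the other 1158 was 0.10 from Dicer null and 0.15 from wild type. Of the 10714 with a mean index of 1 or more, 0 were higher and 6 lower members (0.0560%), and the median of the other 10708 was -0.07 from Dicer null and -0.14 from wild type. Dicer null minus wild type had a median of 0.08 over the probe sets that were not members in the lowest band and -0.07 in the highest. Whether this slope bears on the higher members was not tested. Of the 4 higher members with a mean index above 0, all lay between 0 and 1, whereas 16 lower members lay above 0.

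**Figure D4:**
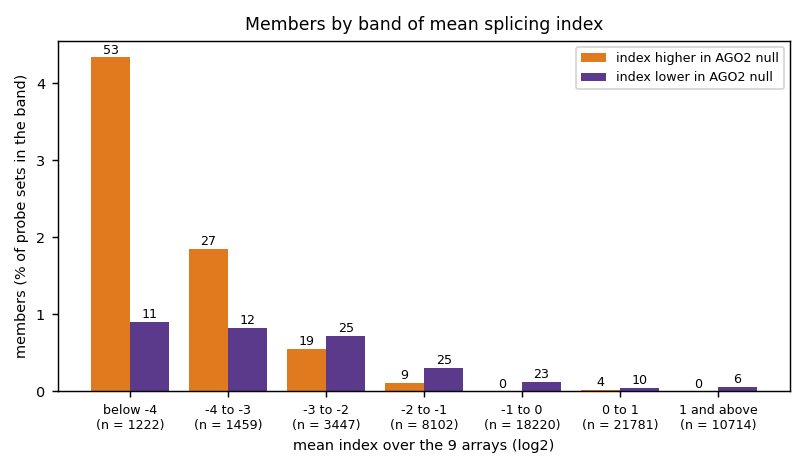
Members as a percentage of the probe sets that met the gene filters, by band of the mean splicing index over the 9 arrays (log2), with n the probe sets in each band. Orange bars are members of higher and violet bars members of lower index in AGO2 null cells, and the number on each bar counts them. Higher members fell from 53 (4.34%) below -4 to 0 at 1 and above. Lower members occurred in all bands, and their share also fell, from 0.900% below -4 to 0.0560% at 1 and above.

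The spread between arrays was wider in members than in other probe sets. The median SD of the index among higher members was 0.46 in AGO2 null cells, 0.34 in Dicer null cells and 0.50 in wild-type cells. Among lower members it was 0.41 in AGO2 null cells, 0.15 in Dicer null cells and 0.26 in wild-type cells. Over all probe sets that met the gene filters it was 0.149 in AGO2 null cells, 0.110 in Dicer null cells and 0.168 in wild-type cells. Of the 41 higher members whose AGO2 null indices overlapped the others, AGO2 null replicate 2 was the nearest to the other genotypes in 33, and of the 71 without overlap it was so in 44. Among the 102 lower members without overlap replicate 1 was the nearest in 70.

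A limma fit ran over the index of all 205449 probe sets of genes with at least 4, with calls at an adjusted p under 0.05. Of the 112 higher members it called 38 against Dicer null, where it called 1.72% of all probe sets higher, and 37 against wild type, where it called 1.49%. Of the 112 lower members it called 82 against Dicer null, where it called 2.17% of all probe sets lower, and 79 against wild type, where it called 1.71%. For Dicer null minus wild type the fit called 0 of the 224 members and 4.9% of all probe sets. An unadjusted p under 0.05 was found in 3 members and was not counted over all probe sets. The shares given here cover all 205449 probe sets and not only the 64945 that met the gene filters. Leaving out each array in turn gave 70 to 125 members called against Dicer null and 74 to 122 against wild type. Against Dicer null the 70 came without Dicer null replicate 1, where 4403 of all probe sets were called. The 125 came without AGO2 null replicate 2 (7042 of all). There were 72 without Dicer null replicate 2 (4436 of all), 74 without Dicer null replicate 3 (4363) and 75 without AGO2 null replicate 3 (4829). Against wild type the 74 came without wild type replicate 2 (3757 of all) and the 122 without AGO2 null replicate 2 (5696). From the 6 arrays compared alone it was 65 against wild type, where 2381 of all were called. Because the rule used these same differences, nothing further is read from the counts, which show only how many members the spread between arrays would let pass by itself.

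The gene-level table, another summary of the same arrays, has a row for 185 of the 200 genes. The median difference of these rows was 0.04 from Dicer null (range -0.85 to 0.67) and 0.02 from wild type (range -0.84 to 0.86), and 0 of them differed by 1 or more. Of the 3782 rows for all genes that met the filters, 3 (0.0793%) did so from Dicer null and 3 from wild type. The 0 is near that share, and nothing is read from it. The rule had kept genes whose level was alike in the genotypes. Levels did not match between the 2 tables for every gene. In AGO2 null cells the gene-level row of Psma3 averaged 4.29, and the median of its exon probe sets 11.73. For Tpm3 these were 7.57 and 10.56.

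Positions of the members are not in the files, but 198 of the 200 genes could be placed in the gene order of the RefSeq annotation (assembly GRCm38.p6), among 4090 genes that met the filters. Members were found on every autosome and on the X chromosome. The share of genes with a member was 4.84% over all chromosomes, and it ran from 2.79% on chromosome 2 (10 of 359 genes) to 9.40% on chromosome 14 (14 of 149). Of the genes with members there were 14 pairs of immediate neighbours. Among genes with probe sets set apart in Dicer null cells there were 4, and among those set apart in wild-type cells 3, out of smaller sets.

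The following stretches were chosen after the values were seen. On chromosome 12, 4 of the 8 consecutive genes from Nemf to Arid4a held 6 members, among them 3 of the 4 members with the widest margins of all. These were Nemf with 3 members and Map4k5, Psma3 and Arid4a with 1 each, 4 higher and 2 lower in all, and 0 of the 8 genes had a probe set meeting the rule for Dicer null or wild-type cells. On chromosome 8, 7 of the 11 consecutive genes from Rnf170 to Asah1 held 10 members, 9 lower and 1 higher. They were Rnf170, Plpbp, Wrn, the exonuclease gene Eri1, Tusc3, the palmitoyltransferase gene Zdhhc2 and the acid ceramidase gene Asah1. The count was 4 with the gene level as a mean, 2 at an index difference of 1.5, and 1 of the 4 genes left at a gene stability of 0.25. In the same stretch 1 gene, Dlc1, had probe sets set apart in Dicer null cells and 0 had any set apart in wild-type cells. The most genes with members in any 20 consecutive genes was 7, on chromosome 8, out of 198 placed. For the Dicer null set it was 5 out of 66, on chromosome 10, and for the wild-type set 4 out of 71, on chromosome 12. The sets differ in size, so these maxima do not show closer grouping in the AGO2 null set. Other neighbours were Pigp with Ttc3 on chromosome 16, Pcid2 with Cul4a on chromosome 8, Sf3b1 with Coq10b on chromosome 1, and Mtmr2, Cep57 and Fam76b in a row on chromosome 9.

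**Figure D5:**
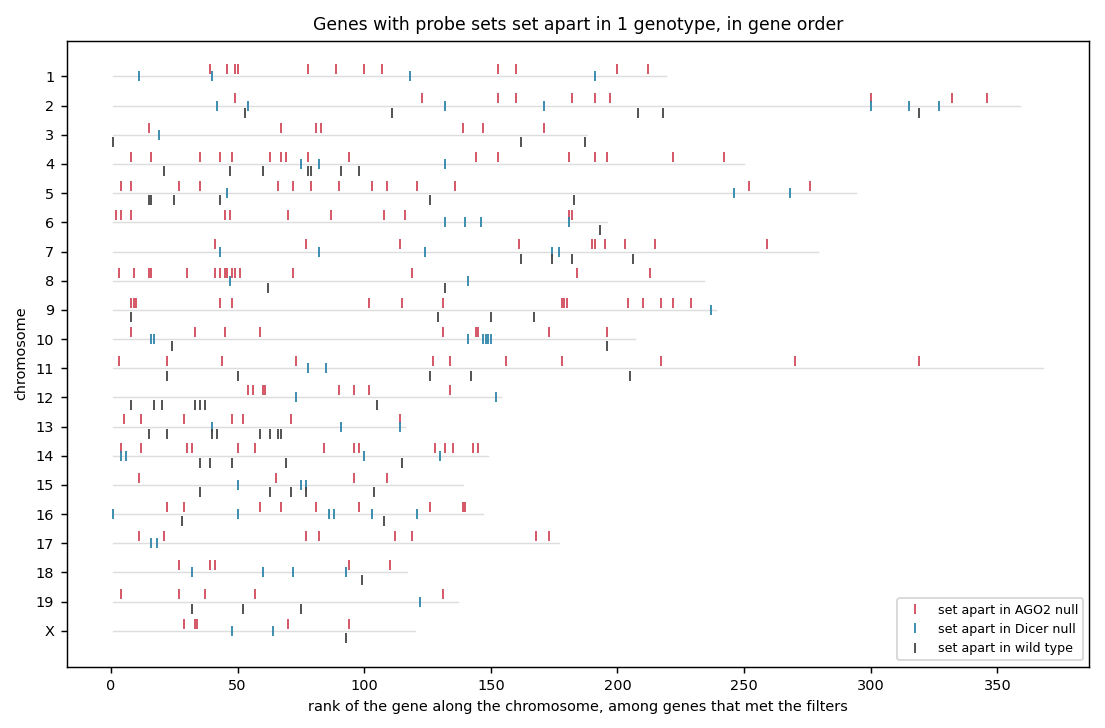
Genes with members (red, upper tick), beside genes with probe sets set apart in Dicer null (blue, middle) and in wild-type cells (dark grey, lower), by rank along each chromosome among the genes that met the filters. Grey lines span the ranked genes of each chromosome; red ticks occur on every chromosome shown and stand close together on chromosome 8, where 7 of 11 consecutive genes hold members.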

How the data were processed

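The authors deposited log2 values for each of the 9 arrays in 2 tables, a gene-level and an exon-level one, and all values were used as deposited. How they were summarised and normalized was not given in the sources used here; per the submitters' processing notes the build was mm8. Probe sets were named from the platform annotation and updated through RefSeq (GRCm38.p6): 209279 had 1 symbol, 4446 had several and 15856 none, and 208810 matched RefSeq. An index could be computed for 205449 probe sets of 14519 genes. Array medians lay between 6.93 and 7.10, and correlations across probe sets were 0.976 to 0.989 within and 0.931 to 0.955 between genotypes. No detection measure was used, and the number of arrays limits the precision.

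Differences of the index were fitted with limma 3.58.1 in R 4.3.3 (lmFit, eBayes, group means, Benjamini-Hochberg over all 205449), tested first on simulated data. Other steps used Python 3.11.15 with pandas 2.3.3. Members and gene lists were chosen with earlier results of these data known. The members named are the 12 higher and 12 lower ones of largest margin without overlap, those of the 15 genes with the most members, all of the 4 RNA and chromatin lists, up to 3 from each other list, and those nearest to the threshold. Alternatives changed scaling, dim values, the gene level, the filters and the arrays used. Deviations of exon values in samples with the same replicate number had correlations from -0.0875 to 0.176 in 9 pairs. Between AGO2 null and wild type they were 0.0439, 0.176 and 0.0953 for replicates 1, 2 and 3. Different numbers of these genotypes gave -0.133 to 0.0658, and same-number pairs with Dicer null were all negative. The numbers were not used as a pairing, and a replicate effect shared by AGO2 null and wild-type arrays was not tested.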

Additional observations from a re-analysis of the deposited data

How the results depend on the processing

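The number of members changed by more than 1.5 times with the treatment of dim values, the filter on gene level, either threshold and AGO2 null replicate 2. Adding 50 to the linear values left 53 members (12 higher, 41 lower), with 36 in the Dicer null set and 30 in the wild-type set. All 53 lay outside the range of the other arrays, where 9.70% of probe sets that met the gene filters did under that setting. Restricting the analysis to probe sets at or above the 25th percentile left 117 (41 higher), with 30 in the Dicer null and 43 in the wild-type set. Of the 117, 106 lay outside the range, where 10.3% of probe sets did under that setting. Without the filter on gene level there were 381 (183 higher, 198 lower), 265 in the Dicer null set and 203 in the wild-type set. Of the 381, 293 lay outside the range, where 6.88% of probe sets did under that setting. A difference of 1.5 kept 48 members and a gene stability of 0.25 kept 91. With the gene level as a mean there were 183 members, 46 in the Dicer null and 54 in the wild-type set, and 4 member genes in the chromosome 8 stretch. That stretch held 2 at a difference of 1.5, 1 at a gene stability of 0.25 (where 4 of its genes met the filters) and 5 of 9 under quantile normalization. Quantile normalization gave 216 members, 186 of them shared, and median centring 212, 188 of them shared. Leaving out each replicate in turn gave 204 to 364 members (highest without AGO2 null replicate 2), 87 to 256 higher and 103 to 165 lower. It left 6 to 8 member genes in the chromosome 8 stretch. Members outside the range ran from 171 without wild type replicate 2, where 11.7% of probe sets were so. They reached 333 without AGO2 null replicate 2, where 21.5% of probe sets were so. Leaving out each replicate also gave 68 to 92 probe sets in the Dicer null set and 73 to 149 in the wild-type set. The wild-type set held 137 without wild type replicate 1 and 149 without wild type replicate 3. Of 2434 index differences of named members recomputed under 15 settings, 2283 moved by less than 1 SD between replicates, 151 moved further and 0 turned in sign. The offset of 50 accounts for 122 of the 151: under it 44 of 166 differences stayed within 1 SD, 102 came to under 1 in size, and 29 of the 83 named members kept both differences at 1 or more. Median centring cannot move an index, and leaving out 1 of 3 arrays cannot move a genotype's mean by 1 SD of those 3 arrays. All 166 differences stayed within 1 SD in each of these settings, so the total of 2283 is not read as stability. The limma fit called 6562 probe sets between AGO2 null and wild-type cells, 4029 with a replicate block, 2381 from the 6 arrays compared alone, 12817 with the offset and 3170 to 5696 leaving out each replicate in turn. Between AGO2 null and Dicer null cells it called 7976, with 5798 under the replicate block, 12569 with the offset and 4363 to 7757 leaving out each replicate in turn. Between Dicer null and wild-type cells it called 10069, with 7856 under the block, 15275 with the offset and 6065 to 10444. Leaving out AGO2 null replicate 3 gave 3170 and Dicer null replicate 3 gave 4363 and 6065. The cause of these shifts was not tested. The replicate numbers were not used as a pairing, so the block fits are given as alternatives only.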
